A study of Mus musculus with 2 samples.

Results

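Fibronectin and 9 other glycoproteins of the extracellular matrix were followed across single fibroblasts sorted by a clock reporter. The genes were Fn1, Fbn1, Eln, Fbln2, Sparc, Thbs1, Thbs2, Tnc, Postn and Spp1. They were taken by name, and the rule uses no measured value, but they were chosen with earlier results of these data known. All 10 had a row among the 33757 features of the count table. The cells were NIH3T3-Rev-VNP1-H2B-iRFP, a derivative of the NIH3T3 mouse embryonic fibroblast line that carries Venus under the name of Nr1d1, the clock repressor also called Rev-erb alpha, and iRFP, a near-infrared protein, on histone H2B. All cells shared this genotype, were unsynchronized and had reached 95% confluency about 5 days after seeding, and no untreated or parental group was part of the design. Each of 2 plates of 384 wells took 96 cells from each of 4 bins of Venus brightness, numbered here from 1 (dimmest) to 4 (brightest). Plate 1 came from the high RFP sort and plate 2 from the low one, so plate and iRFP sort cannot be told apart. A given Venus bin took 6 well columns that were identical between the plates, so bin and column cannot be told apart.

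Of the 768 cells, 762 passed the filters. They gave 8 sums, 1 for each plate and Venus bin, with totals between 76042157 and 86612194 counts, and a median of 843224 counts per cell. Levels are given as CPM, the counts of a gene scaled to a common total per sum, so they are shares of a cell's RNA. Less of a transcript and more of all other RNA in a cell cannot be told apart on this scale. The reporter axis was checked against Nr1d1 itself, which ran from 60.9 CPM in bin 1 to 1266 CPM in bin 4 on plate 1, and from 68.7 to 1169 CPM on plate 2. The 11 fibroblast markers summed to between 17016 and 21310 CPM, of which Col1a1 held 6756 to 9320, Col1a2 3961 to 4865 and Vim 3144 to 4459 CPM. Lum was nearly absent (0 to 0.462 CPM, a count in 3.41% of cells). Thy1 had a count in 51.8% of cells and Dcn in 69.2%, and the remaining markers in 99.1% to 100%. Endothelial markers were below 1 CPM in every sum (0.340 to 0.796), epithelial markers at 3.38 to 7.74 CPM and leukocyte markers at 6.35 to 12.7 CPM. Smooth muscle or myofibroblast markers summed to 107 to 227 CPM, of which Acta2 held 103 to 223 CPM. Chondrocyte or osteoblast markers summed to 382 to 522 CPM, of which Sox9 alone held 381 to 522 CPM.

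Fibronectin is secreted as a dimer and assembled by cells, through integrins, into fibrils on which other matrix proteins are laid down. Fibrillin-1 (Fbn1), elastin (Eln) and fibulin-2 (Fbln2) belong to microfibrils and elastic fibres, which also hold latent TGF-beta in the matrix. Sparc (osteonectin), the thrombospondins (Thbs1, Thbs2), tenascin-C (Tnc), periostin (Postn) and osteopontin (Spp1) are matricellular proteins, which act on cell adhesion and signalling more than as load-bearing structure. Fibroblasts are a main source of many of these proteins.

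Per kilobase of exon, the mean level over the 8 sums fell in the order Sparc (652 CPM per kb), Fn1 (418), Spp1 (259), Fbln2 (117), Fbn1 (11.9), Thbs2 (11.4), Thbs1 (11.3), Eln (4.65), Tnc (2.80) and Postn (0.306). Sparc led Fn1 in every sum (541 to 733 against 306 to 520 CPM per kb). The ranges of Fn1 and Spp1 (143 to 357) overlapped, as did those of Spp1 and Fbln2 (86.5 to 149). Within every sum, however, Fn1 lay above Spp1 and Spp1 above Fbln2. Fbn1 (9.12 to 16.2), Thbs2 (8.56 to 14.4) and Thbs1 (7.52 to 14.1) were interleaved and do not differ beyond their spread. The range of Eln (2.18 to 8.82) overlapped those of Thbs1 and Tnc (1.43 to 4.19), although Thbs1 lay above Eln within every sum. Postn (0.163 to 0.474) lay below all others. By count alone, without regard to length, Fn1 was the most abundant, at a mean of 4883 CPM.

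Across the 4 Venus bins, 6 of the 10 genes were called lower toward bright Venus, 1 was called higher and 3 were not called, by edgeR's quasi-likelihood test of the linear trend at a Benjamini-Hochberg adjusted p under 0.05. Over all 18430 genes tested, 15.4% were called, 8.64% lower and 6.78% higher. Among the 9051 genes whose mean log2 CPM reached 3, as it did for all of the 10 except Postn, 25.4% were called. The genes called lower were Fn1, Fbn1, Eln, Fbln2, Tnc and Spp1, and the gene called higher was Sparc. The median trend of the 10 was −0.22 on the log2 scale per bin, beside 0.00051 for all genes tested. Since the 10 were chosen with earlier results of these data known, these shares only describe them. All 7 called genes also passed the test for any difference between bins, which 8.37% of genes passed.

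**Figure D1:**
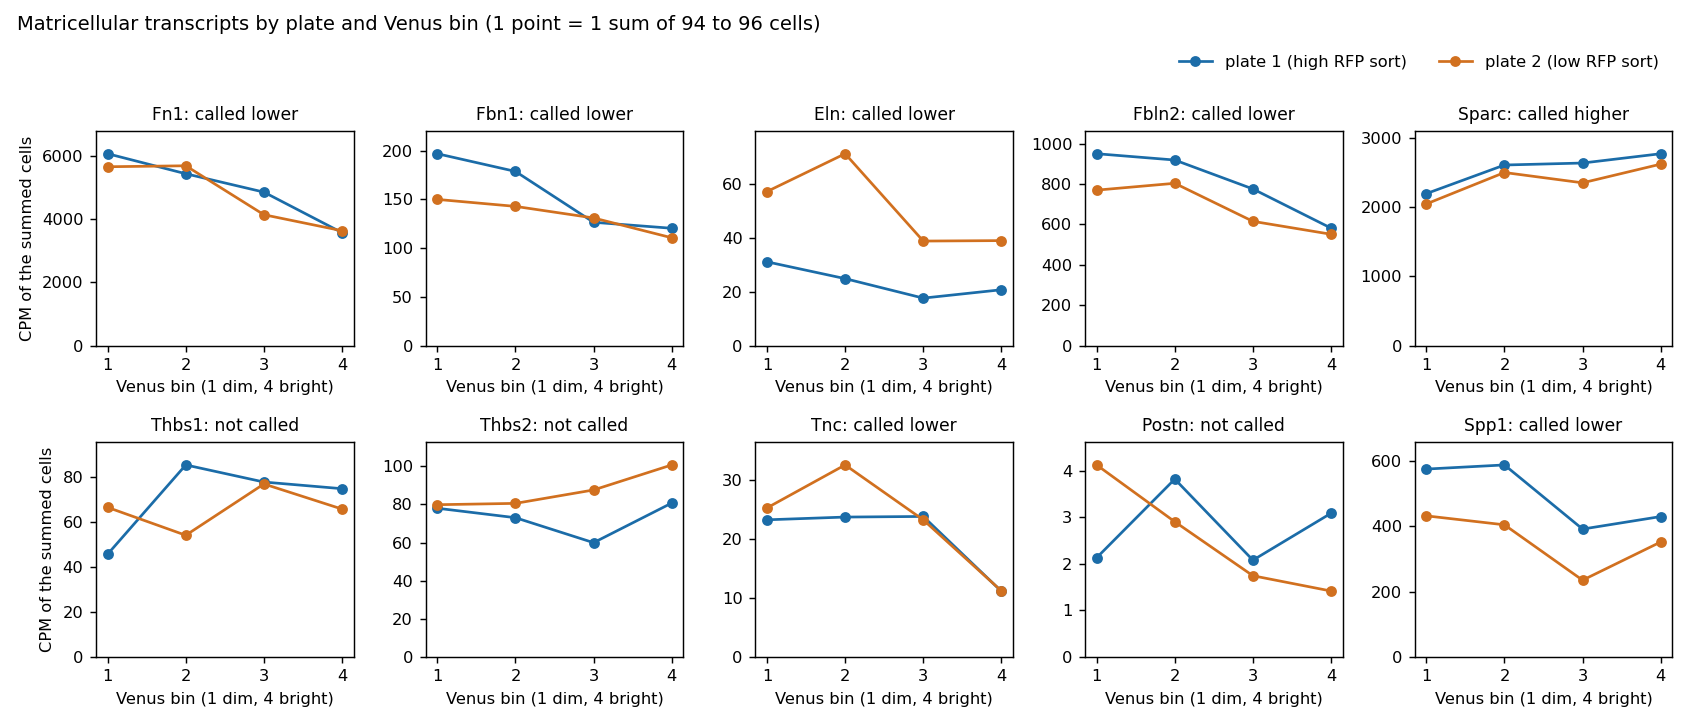
Level of each gene (CPM of the summed cells, axis from 0) against Venus bin (1 dim, 4 bright), with 1 point per sum of 94 to 96 cells, blue for plate 1 and orange for plate 2. Fn1, Fbn1, Fbln2 and Tnc are lowest in bin 4 on both plates, Sparc is lowest in bin 1, and Eln lies higher on plate 2 in all 4 bins.

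Regulatory sequence near the start site is shown for 3 genes that span the range of response: Tnc, with the steepest fall, Fbln2, which also fell, and Sparc, which rose. Each line is the 250 bases before a RefSeq transcript start (GRCm38.p6), 5′ to 3′ on the gene's strand, at chr4:64046937-64047186 (minus strand) for Tnc, chr6:91212514-91212763 (plus strand) for Fbln2 and chr11:55420081-55420330 (minus strand) for Sparc. Capitals mark a TATA box (TATAAA) or a GC box (GGGCGG) read on either strand.
Tnc: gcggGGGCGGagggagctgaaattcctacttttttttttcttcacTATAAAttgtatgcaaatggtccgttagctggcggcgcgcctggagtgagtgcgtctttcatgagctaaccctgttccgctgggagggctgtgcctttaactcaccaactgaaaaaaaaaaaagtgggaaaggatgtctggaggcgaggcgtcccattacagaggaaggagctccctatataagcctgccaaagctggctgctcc
Fbln2: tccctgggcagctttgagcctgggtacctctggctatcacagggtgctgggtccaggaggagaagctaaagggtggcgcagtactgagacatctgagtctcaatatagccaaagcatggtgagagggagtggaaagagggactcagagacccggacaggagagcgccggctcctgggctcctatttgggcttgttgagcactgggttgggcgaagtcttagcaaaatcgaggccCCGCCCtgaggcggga
Sparc: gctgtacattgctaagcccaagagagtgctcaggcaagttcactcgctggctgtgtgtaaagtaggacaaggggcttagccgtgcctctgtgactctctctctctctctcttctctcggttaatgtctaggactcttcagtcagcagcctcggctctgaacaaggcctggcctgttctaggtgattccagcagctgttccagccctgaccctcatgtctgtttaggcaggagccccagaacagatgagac
The Tnc stretch held both GGGCGG and TATAAA, the Fbln2 stretch held GGGCGG, and the Sparc stretch held neither. The TATAAA of Tnc lay at bases −205 to −200 from the start site shown and at −126 to −121 from another RefSeq start of Tnc. Its letters alone do not make it a working TATA box. Nearer the Tnc start shown, the letters TATATAAG do not match TATAAA and were left unmarked. No match overlapped another. Of all 32851 RefSeq windows of 300 bases, which reach 50 bases past the start, 13.6% held TATAAA and 35.7% held GGGCGG on either strand. Windows were matched for 7 of the 10 genes (Fbn1, Fbln2, Sparc, Thbs2, Tnc, Postn and Spp1), 10 windows in all, and none for Fn1, Eln and Thbs1. None of the 10 windows held the clock E-box CACGTG (7.15% of all windows) or the D-box TTATGTAA or TTACGTAA (1.06%). The core of the element bound by Rev-erb and ROR proteins, AGGTCA, stood in 1 Postn window (16.3% of all windows). None held the AP-1 site TGANTCA (7.81%), the TEAD site GGAATG (14.7%) or a CArG box (1.63%), while CCAAT stood in windows of Thbs2, Postn and Spp1 (37.4% of all). A match describes these letters and is not evidence of binding.

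Fn1 transcripts were highest in dim cells on both plates. On plate 1, Fn1 stood at 6072, 5437, 4856 and 3573 CPM in bins 1 to 4. On plate 2 it stood at 5659, 5690, 4141 and 3634 CPM. All 4 sums of bins 1 and 2 lay above all 4 sums of bins 3 and 4, and both bin 4 sums lay below every other. The fitted trend was −0.26 ± 0.020 (SE) on the log2 scale per bin over 2 plates (edgeR adjusted p = 0.000878), and each plate alone gave −0.27 and −0.25. Bin 1 exceeded bin 4 by 1.70-fold on plate 1 and 1.56-fold on plate 2. The call held in each of the 9 alternatives that kept all 4 bins and both plates (adjusted p from 1.6e-29 to 0.00396) and with each bin left out in turn (largest adjusted p 0.0415).

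Every passing cell had Fn1 counts, so the fall was in level and not in the share of cells with a count. Median Fn1 per cell went from 5401 CPM in bin 1 to 2757 CPM in bin 4 on plate 1, and from 5033 to 2933 CPM on plate 2. Single cells overlapped widely between bins: in bin 1 of plate 1 they ranged from 858 to 17481 CPM, and in bin 4 from 407 to 17408 CPM.

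The fibre genes Fbn1, Fbln2 and Eln were lower toward bright Venus as well. Fbn1, whose protein builds the microfibril, stood at 197, 179, 127 and 120.4 CPM on plate 1 and at 150.04, 143, 131 and 111 CPM on plate 2. All sums of bins 1 and 2 lay above all sums of bins 3 and 4, as for Fn1. Its trend was −0.22 ± 0.035 per bin (edgeR adjusted p = 0.00732), steeper on plate 1 (−0.29) than on plate 2 (−0.15). A difference between the plates was not tested. Without bin 4 the trend was −0.21 with an edgeR adjusted p of 0.105.

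Fbln2, a linker between fibronectin, elastin and basement membrane proteins, stood at 950.1, 919, 776 and 582 CPM on plate 1. On plate 2 it stood at 769.7, 804, 615 and 551 CPM. Bin 4 was the lowest on both plates and lay below all sums of other bins. The trend was −0.23 ± 0.021 per bin (edgeR adjusted p = 0.00151), or 1.63-fold between bins 1 and 4 on plate 1 and 1.40-fold on plate 2. All 762 cells had Fbln2 counts.

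Eln, which encodes the elastic core protein tropoelastin, stood at 31.2, 24.9, 17.7 and 20.8 CPM on plate 1 and at 57.3, 71.4, 38.9 and 39.1 CPM on plate 2. Within each plate bins 1 and 2 lay above bins 3 and 4, whereas across plates every plate 2 sum lay above every plate 1 sum. The trend was −0.26 ± 0.046 per bin (edgeR adjusted p = 0.0112), nearly the same on plate 1 (−0.25) and plate 2 (−0.26). It was not called without the plate term (adjusted p = 0.385) or without bin 4 (adjusted p = 0.0659), both by edgeR. In bin 4 of plate 1, 1 cell held 37.8% of the Eln counts, and in bin 2 of plate 2, 1 cell held 32.8%. With the top cell of each sum left out the trend was −0.31 (edgeR adjusted p = 0.00205). The median cell did not fall in order, at 4.33, 3.02, 3.96 and 1.04 CPM on plate 1 and 7.44, 2.48, 0.911 and 2.41 CPM on plate 2.

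Tnc, an anti-adhesive hexamer of wound and tumour matrix, had the steepest trend of the 10. It stood at 23.2, 23.7, 23.8 and 11.1 CPM on plate 1 and at 25.3, 32.5, 23.2 and 11.2 CPM on plate 2. Bins 1 to 3 overlapped, and bin 4 alone was low, on both plates. The trend of −0.38 ± 0.039 per bin (edgeR adjusted p = 0.00202) rested on bin 4, since without that bin it was −0.025 with an adjusted p of 0.878. Fewer cells had a Tnc count in bin 4, with 48 of 96 cells on plate 1 and 48 of 94 on plate 2 (51.1%, exact binomial 95% interval 40.5 to 61.5%). In the other bins the share was 69.8% to 80.0%.

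Spp1, the secreted integrin and CD44 ligand osteopontin, stood at 576, 589, 392 and 430.5 CPM on plate 1. On plate 2 it stood at 433, 405, 235 and 352 CPM. Bin 3, not bin 4, was lowest on both plates, and the plates were offset so that bin ranges overlapped. The trend was −0.19 ± 0.029 per bin (edgeR adjusted p = 0.00671). It was not called without the plate term (adjusted p = 0.229) or without bin 1 (adjusted p = 0.0776), both by edgeR.

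Sparc, a collagen-binding matricellular protein of fibroblasts and bone, went the other way. It stood at 2198, 2613, 2641 and 2776 CPM on plate 1 and at 2049, 2504, 2355 and 2625 CPM on plate 2. Both bin 1 sums lay below all other sums, and bins 2 to 4 overlapped. The trend was small, at 0.083 ± 0.011 per bin (edgeR adjusted p = 0.0047), or 1.26-fold and 1.28-fold higher in bin 4 than in bin 1. It rested on bin 1, since without that bin it was 0.016 with an adjusted p of 0.696, and it was also not called without the plate term (adjusted p = 0.124).

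Thbs1, Thbs2 and Postn were not called. Thbs1, an activator of latent TGF-beta, stood at 45.7, 85.4, 77.8 and 74.8 CPM on plate 1 and at 66.5, 54.1, 76.9 and 65.7 CPM on plate 2. The order of bins differed between the plates, and the trend was 0.094 ± 0.071 per bin (edgeR adjusted p = 0.436). In bin 1 of plate 2, 1 cell held 27.3% of the Thbs1 counts.

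Thbs2, a close relative that limits angiogenesis, stood at 78.0, 73.0, 59.9 and 80.7 CPM on plate 1 and at 79.9, 80.5, 87.6 and 100.7 CPM on plate 2. The bins overlapped, and the trend was 0.032 ± 0.038 per bin (edgeR adjusted p = 0.646). Postn, a collagen-binding protein of periosteum and scar that helps cross-linking, was nearly silent, at 2.13, 3.82, 2.08 and 3.09 CPM on plate 1 and at 4.13, 2.91, 1.74 and 1.41 CPM on plate 2. Its trend was −0.26 ± 0.13 per bin (edgeR adjusted p = 0.237), as large as that of Fn1 but with a far larger error. Between 22.2% and 58.1% of the Postn counts of a sum came from 1 cell. With that cell left out of each sum the trend was −0.40 (edgeR adjusted p = 0.0367).

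**Figure D2:**
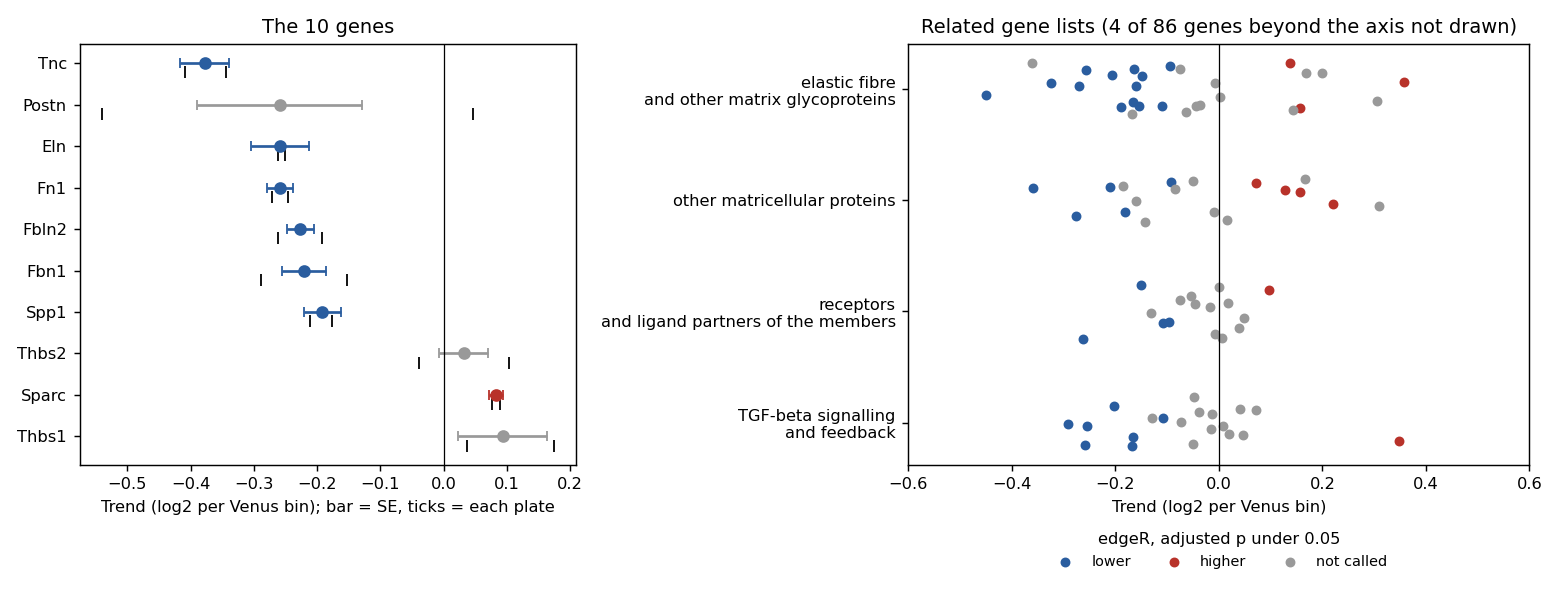
Left, the fitted trend of each gene (log2 per Venus bin) with its SE as a bar and each plate's own value as a tick. Right, the genes of 4 related lists on the same scale, 1 dot per gene, with 4 of 86 genes beyond the axis not drawn; 6 of the 10 genes at left are called lower and Sparc is called higher.

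Cell cycle lists were measured beside these trends. The 20 genes of an S phase list summed to 305, 354, 440 and 597 CPM in bins 1 to 4 on plate 1 and to 378, 489, 436 and 555 CPM on plate 2, and 12 of the 20 were called higher and none lower. The 22 genes of a G2/M list summed to 361, 470, 493 and 815 CPM in bins 1 to 4 on plate 1 and to 653, 903, 402 and 866 CPM on plate 2, with no common order of the bins. Of the 22, 6 were called higher and none lower, or 27.3%, close to the 25.4% of genes at a mean log2 CPM of 3 or more. The trends were also taken in the cells with the lower summed cycle lists, 47 or 48 of each sum, where both lists together held 227 to 262 CPM. The median of the summed lists differed between sums, from 279 to 331 CPM on plate 1 and 306 to 366 CPM on plate 2. The kept cells were therefore not matched for cycle state between bins. In these cells Fn1 had a trend of −0.20 (edgeR adjusted p = 0.000485), Fbln2 −0.20 (0.000853), Fbn1 −0.18 (0.0246), Tnc −0.48 (0.00857), Spp1 −0.24 (0.0308) and Sparc 0.16 (0.0023). Eln, at −0.23, was not called there (edgeR adjusted p = 0.0879). Choosing cells in this way was added after the data were seen, and the part of the cell cycle in the trends was not tested. Over all genes 1385 were called in them.

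Genes detected per cell and the mitochondrial share were not constant over the bins: the median went from 10933 genes in bin 1 to 11300 in bin 4 on plate 1 and from 10867 to 11315 on plate 2, and the mitochondrial share from 9.77% to 8.68% and from 7.24% to 7.02%. Their part in the trends was not tested. Thinning to a common depth of 400000 counts left 753 cells and changed the share of cells with a count by little: for Tnc it was 69.5% on plate 1 and 70.7% on plate 2 with all counts, and 66.8% and 66.6% when thinned.

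**Figure D3:**
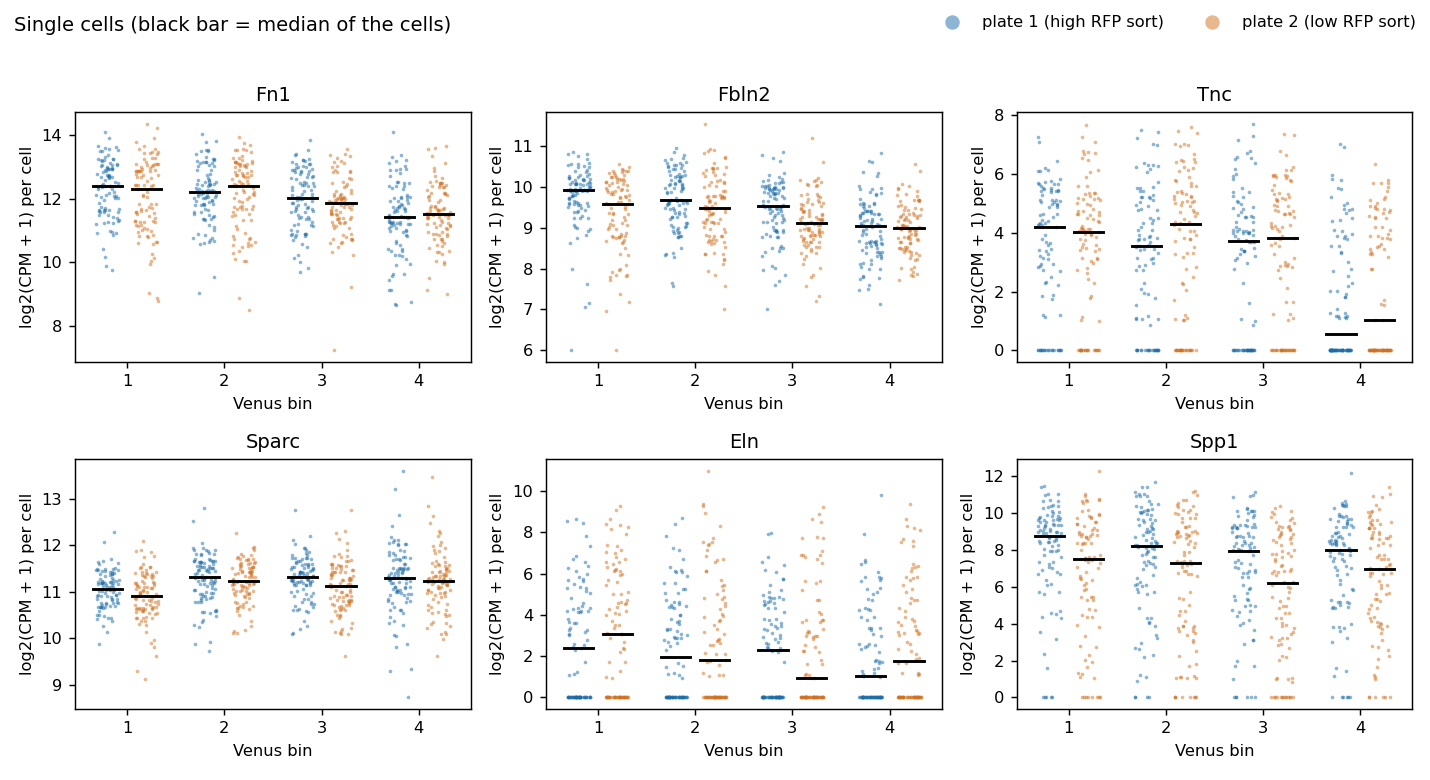
Level in single cells, log2(CPM + 1), against Venus bin for 6 of the genes, with 1 point per cell, blue for plate 1 and orange for plate 2, and the median as a black bar. The medians of Fn1 and Fbln2 are lower in bins 3 and 4 than in bins 1 and 2, the median of Tnc drops in bin 4, where 48 cells of each plate have a count, and Eln and Spp1 spread over several log2 units in every bin.

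The spread between cells of 1 bin set the genes apart from one another. The coefficient of variation (CV, the SD over the mean) within bins was 0.390 on plate 1 and 0.398 on plate 2 for Sparc, 0.459 and 0.509 for Fbln2, 0.548 and 0.532 for Fbn1, and 0.630 and 0.649 for Fn1. It was 1.22 and 1.45 for Spp1, 1.23 and 1.58 for Thbs1, 1.06 and 1.09 for Thbs2, 1.58 and 1.35 for Tnc, 2.86 and 2.67 for Eln and 4.82 and 4.36 for Postn. A fit of CV on mean level across all genes of sufficient level (12067 on plate 1 and 12132 on plate 2) gives the CV usual for a gene of that level. All 10 genes lay above it on both plates.

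Spp1 and Eln lay furthest above the fit. Spp1 reached percentile 99.6 of all genes in its distance above the fit on plate 1 and 99.8 on plate 2, and Eln 99.6 and 99.9. The lowest percentiles were those of Sparc (88.2 and 89.7) and Fbn1 (91.7 and 88.6). The top 10 cells of a sum held 64.6% to 81.5% of its Eln counts, compared with 16.3% to 23.2% for Sparc. Eln had a count in 54.6% of cells on plate 1 (exact binomial 95% interval 49.4 to 59.6%) and in 56.7% on plate 2 (51.6 to 61.8%), at a median of 0.911 to 7.44 CPM per cell, while single cells reached 2021 CPM. Amplified reads are not independent molecules here, so these intervals cover counting error only and part of the spread is technical.

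**Figure D4:**
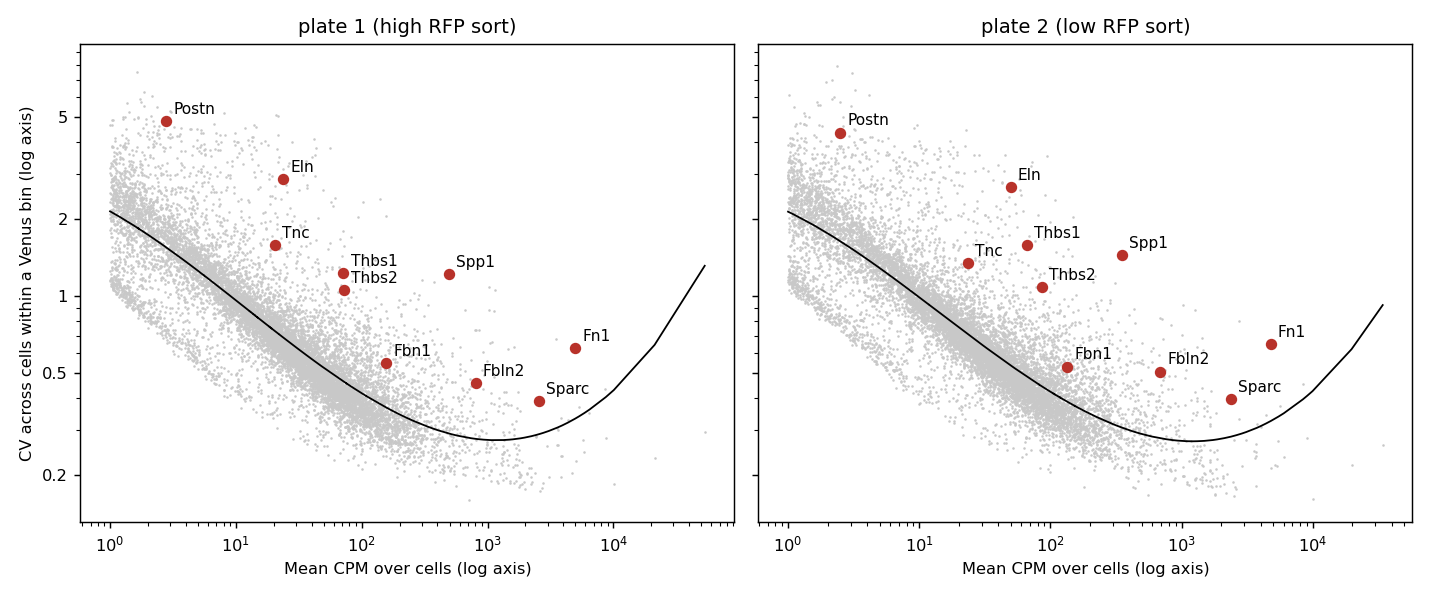
CV across cells within a Venus bin against mean CPM over cells (both log axes), with 1 grey point per gene, the fit as a black line and the 10 genes in red, for each plate. All 10 lie above the fit, with Spp1, Eln and Thbs1 farther above it than Sparc and Fbn1.

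Across cells ranked within their plate and Venus bin (383 and 379 cells), the 45 pairs among the 10 genes had a median Spearman correlation of 0.13. Of the pairs, 36 were positive on both plates and 8 negative on both. These are descriptions over cells of the same plate, which are not replicates, and depth differed between cells (151173 to 1618022 counts). The highest pairs were Sparc with Eln (0.29 on plate 1 and 0.46 on plate 2), Fn1 with Fbln2 (0.27 and 0.34), Fbln2 with Spp1 (0.30 and 0.28) and Fn1 with Eln (0.31 and 0.24). Tnc went with both thrombospondins (0.26 and 0.26 with Thbs1, 0.23 and 0.26 with Thbs2), while Thbs1 and Thbs2 were nearly unrelated to each other (0.019 and 0.058). The lowest pair was Fbn1 with Spp1 (−0.19 and −0.17), negative in 7 of the 8 sums.

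Fn1 and Sparc, which moved in opposite directions with Venus, were weakly positive with each other inside the bins (0.13 and 0.12), in 6 of 8 sums. Both were negative with the G2/M list (mean of the plates −0.34 for Fn1 and −0.33 for Sparc, negative in 8 of 8 sums for each), as did Fbln2 (−0.26, 8 of 8). Type I collagen went with Sparc (0.54 with Col1a1) and Fbln2 (0.49), and Col1a2 went with Fn1 (0.54). Fn1 also went with the summed TGF-beta list (0.44, positive in 8 of 8 sums). Total counts per cell were unrelated to Fn1 (−0.012), whereas genes detected (−0.24) and the mitochondrial share (0.21) were not.

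The clock output gene Dbp gave different values for Fn1 inside bins and across them. Inside bins the correlation was positive in 8 of 8 sums (0.13 to 0.38). Over a whole plate, which adds the differences between bins, it was −0.0010 on plate 1 and 0.019 on plate 2. Other clock genes were less uniform with Fn1 inside bins. Tef (−0.068 to 0.31) and Nr1d1 (−0.069 to 0.30) were each positive in 7 sums and negative in 1. Arntl (−0.26 to 0.26) was positive in 5 and negative in 3. Venus fluorescence over a whole plate was negative with Fbln2 (−0.33), Fbn1 (−0.27), Fn1 (−0.25) and Tnc (−0.23) and positive with Sparc (0.15). Within bins the same values were −0.10, −0.076, 0.010, −0.015 and −0.027.

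**Figure D5:**
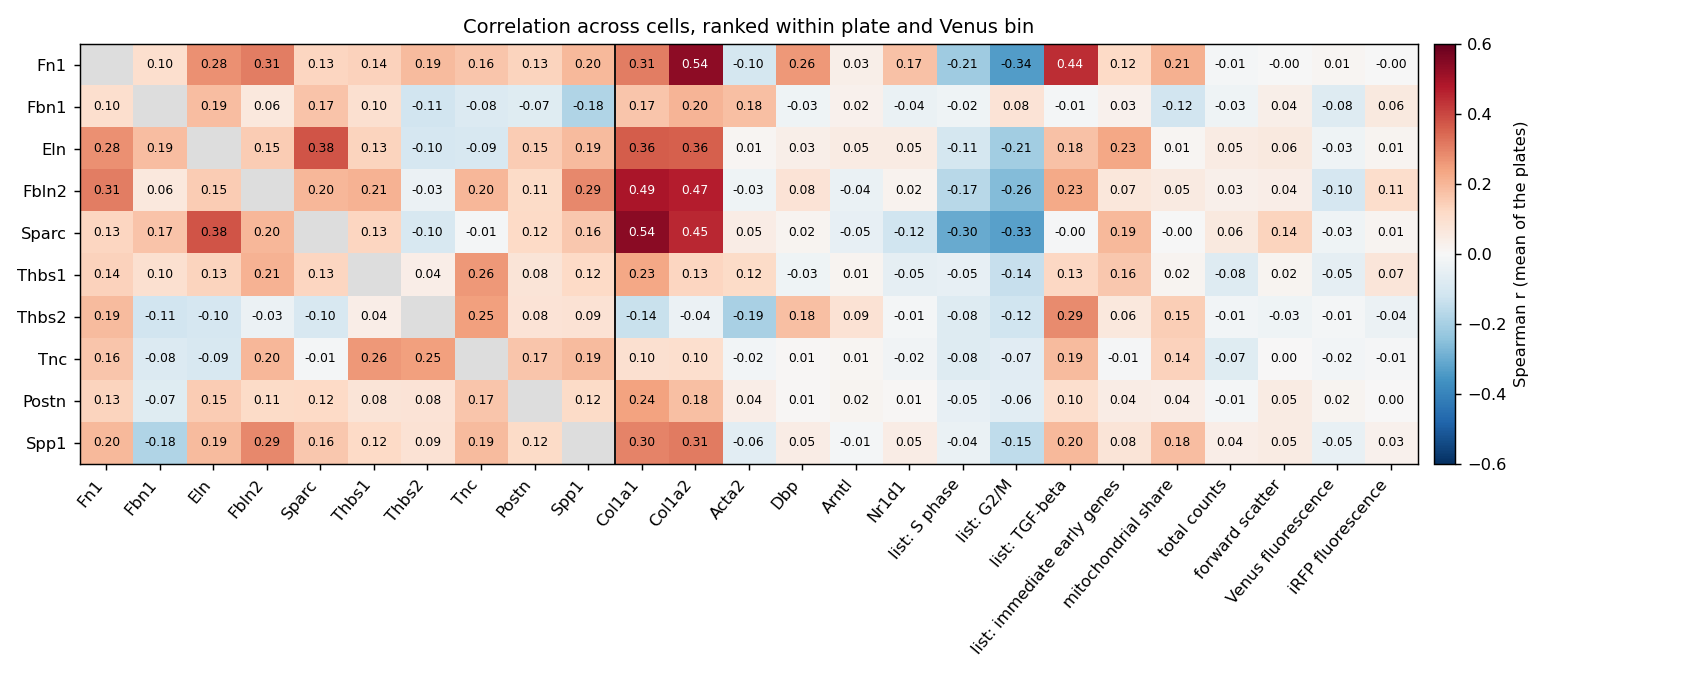
Spearman correlation (colour and number, mean of the plates) of each of the 10 genes, in rows, with the other 9 and with further genes, list sums and sort measures, in columns, across cells ranked within plate and Venus bin. Most pairs of the 10 are weakly positive, the type I collagen columns are strongest for Sparc, Fbln2 and Fn1, and the G2/M column is negative for all but Fbn1.

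The genes most alike in pattern were sought among 10168 genes by the mean over plates of the same within-bin correlation. For Fn1 they were Itm2b (0.69), Cst3 (0.63) and Matn2 (0.58), all encoding secreted or membrane proteins. For Fbln2 they were Bgn (0.57), Fstl1 (0.55) and App (0.50). For Sparc they were the collagen-processing genes Pcolce (0.56) and Serpinh1 (0.50), with Col1a1 between them. For Spp1 they were Bgn (0.48), Capn6 (0.45) and Ptn (0.43), and for Tnc Selenop (0.46), Col3a1 (0.37) and Serpinf1 (0.36).

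Lower values were found for the other genes. Thbs2 was most like St3gal1 (0.43), Nedd4 (0.39) and Zfp36l1 (0.37), and the genes most like Eln included Pcolce (0.42) and Pdgfrl (0.42). Fbn1 was most like the fibrillar collagen genes Col5a1 (0.35) and Col5a2 (0.33) and Thbd (0.34). Thbs1 reached only 0.29 with Bgn, 0.27 with Spry1 and 0.26 with Tnc. Postn had a count in 13.9% of cells, too few for this comparison.

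Between the plates, which differ in iRFP sort, Eln stood out. It was 23.5 CPM on plate 1 (exact Poisson 95% interval 23.0 to 24.1) and 51.2 CPM on plate 2 (50.4 to 52.0), 2.18-fold higher on plate 2, and the ratio of plate 1 to plate 2 lay between 0.349 and 0.544 in the 4 bins. Leaving out the top cell of each sum gave the same 2.18-fold. Such intervals cover counting error only, there is 1 plate on each side, and no test was made. A ratio of at least 1.5-fold either way was found for 9.94% of 18424 genes, and for 0.52% of the 9045 genes with a mean of at least 8 CPM. The share of cells with an Eln count was 54.6% on plate 1 and 56.7% on plate 2. The median cell was lower on plate 2 than on plate 1 in bin 2 (2.48 against 3.02 CPM) and bin 3 (0.911 against 3.96 CPM), where the sums were higher on plate 2, and the top 10 cells of those sums held 81.5% and 76.3% of the counts on plate 2 and 70.1% and 64.6% on plate 1.

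Spp1 was 497 CPM on plate 1 and 353 CPM on plate 2, a ratio of 1.41 that lay between 1.22 and 1.67 in the 4 bins. Thbs2 was lower on plate 1 in all 4 bins (ratio 0.832, 0.684 to 0.977), although with trimmed mean (TMM) scaling the bin 1 ratio was 1.04. Fbln2 (1.18) and Sparc (1.08) were slightly higher on plate 1 in all 4 bins. The ratios of Fn1 (1.05), Fbn1 (1.16), Thbs1 (1.08), Tnc (0.897) and Postn (1.10) changed side of 1 between bins. With TMM scaling the Fn1 ratio was above 1 in all 4 bins (1.01 to 1.21). Mitochondrial reads made up a median of 9.27% of a cell's counts on plate 1 against 7.42% on plate 2, and their part in these ratios was not tested.

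Related genes give the setting. Of 28 elastic fibre and other matrix glycoprotein genes tested, 13 were called lower, 3 higher and 12 not called, with a median trend of −0.10. Those that fell most were Mfap2 (−0.45), a microfibril protein at under 1 CPM, Ltbp2 (−0.32), a fibrillin-binding protein, and Nid1 (−0.27), a basement membrane linker, and those that rose were Tnxb (0.36), Emilin2 (0.16) and Ltbp1 (0.14), a carrier of latent TGF-beta. Of 20 other matricellular genes, 5 were called lower, led by Ccn2 (−0.36), Tnr (−0.28) and Ccn1 (−0.21), and 4 higher, led by Plat (0.22), Ccn4 (0.16) and Igfbp7 (0.13). Named values come from edgeR trends with an adjusted p under 0.05.

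Among 18 receptors and ligand partners, 5 were called lower, 1 higher and 12 were not called. The fibronectin receptor subunits Itga5 (−0.017, edgeR adjusted p = 0.757) and Itgb1 (0.0054, adjusted p = 0.853) were not called, whereas Itgb3 (−0.26, adjusted p = 0.00367), which pairs with alpha-v in the receptor for fibronectin and osteopontin, was lower. Sdc3, a cell surface heparan sulphate proteoglycan, fell from 8.76 to 0.563 CPM between bins 1 and 4 on plate 1 and from 14.7 to 0.366 CPM on plate 2, with a trend of −1.42 ± 0.093 (edgeR adjusted p = 0.000484). Sdc2 rose (0.096). Of 20 TGF-beta signalling and feedback genes, 7 were called lower, led by Tsc22d1 (−0.29), Pmepa1 (−0.26) and Tgif1 (−0.26), and 1, Tgfb2 (0.35), was called higher. Of 16 immediate early genes, 4 were called lower and 2 higher. Of 17 clock genes, 13 were called higher, led by Nr1d1 (1.38), and 2 lower, Arntl (−0.72) and Nfil3 (−0.41). Of the 11 fibroblast markers, 4 were called lower and 2 higher. The shares called were 33.3% of the receptors and partners, 37.5% of the immediate early genes and 40% of the TGF-beta list, not far above the 25.4% given above. They were 45% of the other matricellular genes, 57.1% of the elastic fibre and other matrix glycoprotein genes and 54.5% of the fibroblast markers. The S phase list reached 60% and the clock genes 88.2%, beside 70% of the 10 genes.

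Fn1, Fbn1, Eln, Thbs1 and Tnc each overlap a gene on the opposite strand in their exons (Apol7d, Gm9913, Gm30003, Gm29233 and 8030451A03Rik). The use of strand in counting is not given in the sources used here, so reads of such a pair cannot be told apart. The partners held 4394, 218, 30, 9 and 31 counts in all cells, while on plate 1 alone Fn1 held 1600693 counts, Fbn1 49879, Eln 7544, Thbs1 22912 and Tnc 6612. Thbs1 and Thbs2 are paralogs, and how reads that match more than 1 gene were assigned is not given either.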

How the data were processed

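The deposited values were raw counts for each gene in each cell of 2 plates of 384 FLASH-seq libraries (a full-length single-cell method), with the sorter's fluorescence and scatter intensity per cell in arbitrary units. Libraries took 21 cycles of cDNA amplification and 8 of adapter PCR before paired 75 bp sequencing, per the labels' protocols. The submitters' processing notes name STAR 2.7.11a, HTSeq, SAMtools, bedtools and GRCm39 without their roles; annotation, strand and any molecular identifiers are not given in the sources used here. GENCODE M21 (GRCm38) served only for symbols (24902 of 33757 features), exon lengths and overlaps. Cells with under 1000 genes, under 0.1 of the plate's median total or over 25% mitochondrial counts were left out, 6 in all. Features with no symbol held 1.07% of counts.

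Counts were summed per plate and Venus bin, and edgeR 4.0.16 (R 4.3.3) tested the linear trend and any difference over bins with the plate as a block and TMM scaling, over all genes kept by its filter on low counts. The block reflects that the 4 bins of a plate come from 1 sample. With this block, the p-values measure how far differences between bins vary from plate to plate, with the spread pooled in part over all genes. The plates also differ in iRFP sort. The labels do not say whether they came from separate cultures, so this spread may be technical. The trend fit was also run on simulated sums in which every gene had the same spread beyond counting error. These hold no single cells, so the run does not cover genes whose counts rest on few cells. Levels per cell, shares with exact binomial intervals and Spearman correlations were computed in Python 3.11.15 with no test. DESeq2 1.42.0, limma 3.58.1 and other settings were alternatives.

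Named were the 10 genes, up to 3 rising and 3 falling called genes of each list, the 3 genes most like each of the 10 that had a count in at least 25% of cells, and overlapping genes; 1 gene that the rule selects is not reported here. The members and lists were chosen with earlier results of these data known.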

Additional observations from a re-analysis of the deposited data

Results flagged for a closer look

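The Venus trends of 2 genes had opposite signs on the plates, and the difference was not tested for either. The trend of Thbs2 was −0.039 on plate 1 and 0.10 on plate 2, a difference of −0.14 on the log2 scale per bin. That of Postn was 0.047 on plate 1 and −0.54 on plate 2, a difference of 0.59. Neither gene was called in the fit over both plates, and single cells held up to 58.1% of the Postn counts and up to 16.9% of the Thbs2 counts of a sum.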

How the results depend on the processing

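The number of genes called for the trend, 2843, was 1683 with no replicate block (no plate term), 1858 with bin as a number in an additive model, 1140 without Venus bin 1, 358 without Venus bin 4 and 1385 in the cells with the lower cycle lists; the other 7 alternatives gave 2171 to 3569. Without TMM 57.7% of calls were higher, beside 44.0% with it, and with limma on mean CPM 57.6%, while the median trend of all genes moved to 0.018. The number with any difference, 1542, was 490 with no replicate block and 2661 with no filter. The 7 called genes of the 10 all remained called without TMM, with no filter, under the stricter cell filter, in DESeq2, in limma, without bin 2 and without bin 3. Of the 7, 4 remained with no block (Fn1, Fbn1, Fbln2, Tnc), 4 in the additive model (Fn1, Fbn1, Eln, Fbln2), 5 without bin 1 and 3 without bin 4 (Fn1, Fbln2, Spp1). In the additive model the edgeR adjusted p was 0.0604 for Sparc, 0.0758 for Tnc and 0.101 for Spp1; for Sparc it was 0.0527 without bin 4. Signs turned for Thbs1 without bin 1 (−0.0078), Thbs2 without bin 4 (−0.064), in the lower-cycle cells (−0.014) and without plate 2 (−0.039 on plate 1 alone, 0.10 on plate 2 alone), and Postn without plate 2 (0.047 on plate 1 alone, −0.54 on plate 2 alone). The plate ratio crossed 1 for Fn1 in bins 2 (0.956) and 4 (0.983), Fbn1 in bin 3 (0.966), Thbs1 in bin 1 (0.687), Tnc in bin 3 (1.02) and Postn in bin 1 (0.516) and without its top cells (0.911). With TMM scaling the Fn1 ratio was above 1 in bins 2 (1.007) and 4 (1.012). The median pair correlation was 0.13 to 0.14 with either plate left out. With 2 plates, 3 residual degrees of freedom limit every test, and 22.2% to 58.1% of the Postn counts of a sum came from 1 cell.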
